A study of Mus musculus with 18 samples.

Results

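The 9 genes described here cover the path of monoamines through a nerve terminal: the synthesis enzymes Th and Ddc, the vesicular transporter Slc18a2, the plasma membrane transporters Slc6a3, Slc6a4, Slc22a3 and Slc29a4, and the breakdown enzymes Maoa and Maob. They were chosen by name, as the rows of the expression table that carry these symbols, and were 9 of 29942 gene names. Each had 1 row under its exact spelling. Expression was given as FPKM, a fragment count scaled by transcript length and by the mapped fragments of the library, so levels can be set side by side between genes per length. Of the 9 genes, 6 averaged at least 1 FPKM over the 18 libraries, and Slc6a3, Slc6a4 and the row named Slc18a2 lay below it.

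The libraries were made from polyA RNA of the striatum, taken from both hemispheres above the anterior commissure, of 18 sibling mice of strain 129Sv/Jae S4 that were matched for age and sex and housed in groups. Mice of the amphetamine groups received D-amphetamine hemisulfate intraperitoneally in 0.9% saline, 10 ml/kg per injection and 7 mg/kg in total per day, and were sampled on day 1, day 7 or day 21, with 3 mice each day. Mice of the saline groups received intraperitoneal 0.9% saline and were sampled on the same 3 days, with 3 mice each day. Ages, the number of daily injections and the interval between injection and dissection were not stated in the labels. The labels do not say whether replicates were prepared on separate days. The p-values therefore set group differences against the spread between these libraries, which may include differences of preparation.

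Dopamine is made from tyrosine in 2 steps, hydroxylation by Th and decarboxylation by Ddc, and the vesicular monoamine transporter encoded by Slc18a2 loads it into synaptic vesicles. The dopamine transporter Slc6a3 and the serotonin transporter Slc6a4 return released monoamine to the terminal, the low-affinity carriers Slc22a3 and Slc29a4 take it up into other cells, and the monoamine oxidases Maoa and Maob degrade it in the cytosol. The cell bodies of the dopamine and serotonin neurons lie in the midbrain and hindbrain and send axons to the striatum, and amphetamine enters these axons through the plasma membrane transporters and releases monoamine from vesicles.

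Promoter sequence from RefSeq (GRCm38.p6) was matched by symbol for 8 of the 9 genes, in 9 entries, each reaching from 250 bases before to 50 bases after an annotated start. The letters TGACGTCA, the palindromic cyclic AMP response element, were found in 2 of these promoters, those of Th and Slc18a2, and in 588 of 32851 promoters of the table (1.79%). They lay at positions -45 to -38 from the start in Th and at -4 to 4 in Slc18a2, where the first transcribed base is 1 and there is no position 0. A stretch around each is shown 5′ to 3′ with the 8 letters in capitals, because these genes encode the entry enzyme of dopamine synthesis and its vesicle loader. The Th stretch is chr7:142899996-142900105 on the minus strand and the Slc18a2 stretch is chr19:59260772-59260881 on the plus strand.
Th: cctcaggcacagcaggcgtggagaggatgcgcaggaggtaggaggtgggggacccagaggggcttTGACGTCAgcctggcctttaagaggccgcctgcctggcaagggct
Slc18a2: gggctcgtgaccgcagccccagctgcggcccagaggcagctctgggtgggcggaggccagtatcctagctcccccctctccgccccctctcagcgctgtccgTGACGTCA
The AP-1 letters TGACTCA, read on both strands, were found in 0 of the 9 member entries and in 5.20% of the promoters of the table. These matches describe the letters of the windows, and binding was not measured here.

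The libraries carried striatal transcripts. The markers of striatal projection neurons were present in each library, among them Ppp1r1b, which encodes the phosphoprotein DARPP-32, at a mean of 1142 FPKM and the dopamine receptor gene Drd2 at 131 FPKM. Markers of the neurons that project to the striatum were mostly below 1 FPKM. Of 9 midbrain dopamine neuron markers, 8 averaged below 1 FPKM, and the transcription factor genes Foxa1 and Foxa2 were listed at 0 in the 18 libraries. The exception, Nr4a2, averaged 2.02 FPKM with a range of 0.253 to 6.83. Of the 8, En2 averaged 0.289 FPKM and was above 0 in each library. The 4 serotonin neuron markers and the 4 noradrenaline neuron markers averaged below 1 FPKM, and Fev, Gata3 and Dbh were listed at 0 in 17 libraries each. Others of these lists were detected more widely. Gata2 averaged 0.946 FPKM with a range of 0.519 to 1.33, and Tph2 averaged 0.123 FPKM, both above 0 in each library. Phox2a averaged 0.0597 FPKM and was at 0 in 1 library. The immediate-early gene Fos was 1.98 ± 0.16 higher with amphetamine on the log2 scale, averaged over days (SE, limma adjusted p = 4.91e-05). On days 1, 7 and 21 it was 1.87, 2.26 and 1.82 higher (limma adjusted p = 0.0525, 0.0140 and 0.0717). Thus the single-day tests passed Fos on day 7 only, and could miss a difference of that size. The reads behind each library were unknown. Depth relative to the deepest library (1), estimated from the spacing of low FPKM values, was 0.652 at its lowest and averaged lower in the amphetamine groups, at 0.811, 0.822 and 0.765 on days 1, 7 and 21, against 0.884, 0.894 and 0.873 in the saline groups.

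Among the genes above 1 FPKM, the breakdown enzyme Maob was the highest, with a mean of 7.04 FPKM over 18 libraries. It was followed by Slc22a3 at 6.20, Maoa at 5.85, Ddc at 4.39, Th at 3.47 and Slc29a4 at 1.82 FPKM. The order was not fixed in every library: Maob stood above Slc22a3 in 15 of 18 libraries, Slc22a3 above Maoa in 9, Maoa above Ddc in 16 and Ddc above Th in 11. The ranges of all these neighbours overlapped. The spread between libraries also differed by gene. The coefficient of variation was 8.31% for Maoa, 10.9% for Maob and 12.6% for Slc22a3, against 26.1% for Ddc, 34.2% for Th and 40.8% for Slc29a4. Of the 6 genes, Slc29a4 alone fell below 1 FPKM in any library, in 2 of 18. In whole tissue, fewer cells of a type and less RNA per cell cannot be told apart, so each value below is a level per tissue sample.

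**Figure D1:**
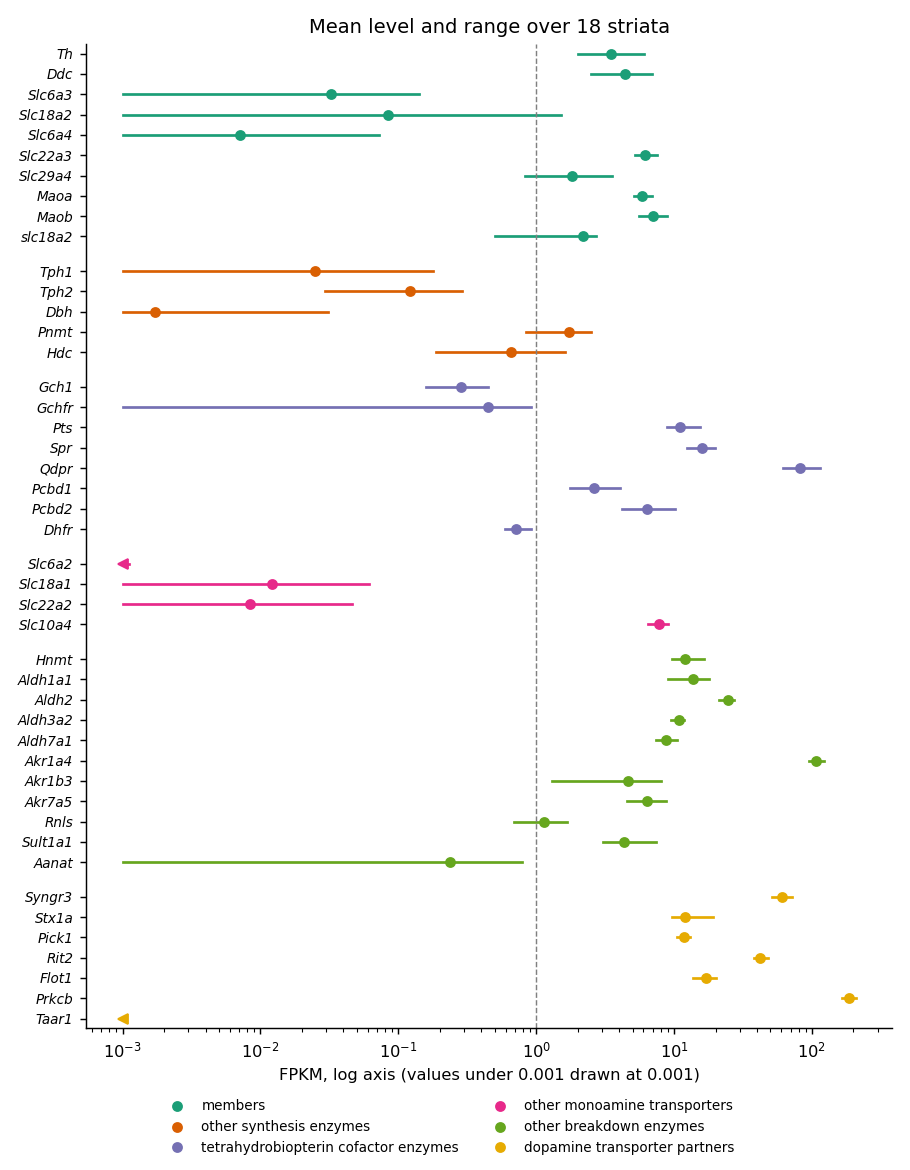
FPKM on a log axis for the 9 members and the row slc18a2, and for further genes of monoamine handling, where points are means and lines run from the lowest to the highest of 18 striata. Arrowheads mark genes whose mean lay under 0.001 FPKM, and the dashed line marks 1 FPKM. Most breakdown enzymes lie to the right of that line, with Aldh2 at 24.6 FPKM and Maob at 7.04 FPKM, while Slc6a3 averaged 0.0325 FPKM and Slc6a4 averaged 0.00713 FPKM.

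Th encodes tyrosine hydroxylase, the rate-limiting enzyme of catecholamine synthesis. On day 1 it had 2.64, 2.79 and 3.84 FPKM in the amphetamine mice, against 2.88, 2.16 and 2.01 FPKM in the saline mice. The groups overlapped, because the highest saline library exceeded the lower 2 amphetamine libraries. On day 7 Th had 3.59, 5.64 and 6.02 FPKM with amphetamine, against 3.50, 2.63 and 4.79 FPKM with saline, and the groups again overlapped, with 2 amphetamine libraries above all saline libraries of that day. On day 21 the values were 2.94, 3.75 and 4.91 FPKM with amphetamine, against 3.55, 2.50 and 2.31 FPKM with saline, with the same pattern. The mean level was higher with amphetamine on 3 of 3 days, at 3.09 ± 0.65, 5.08 ± 1.31 and 3.87 ± 0.99 FPKM, against 2.35 ± 0.47, 3.64 ± 1.09 and 2.78 ± 0.67 FPKM with saline (SD, n = 3 each). A mean higher on each of the 3 days was found for 13.1% of the tested genes.

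Ddc encodes aromatic L-amino acid decarboxylase, which makes dopamine from L-DOPA and serotonin from 5-hydroxytryptophan. On day 1 it had 6.92, 4.99 and 6.07 FPKM in the amphetamine mice, against 4.64, 3.58 and 5.33 FPKM in the saline mice, and the lowest amphetamine library lay within the saline range. On day 7 Ddc had 4.39, 3.92 and 3.93 FPKM with amphetamine, against 2.49, 2.58 and 3.65 FPKM with saline. These groups did not overlap, as was the case, with amphetamine higher, for 5.45% of the tested genes on that day. On day 21 it had 5.20, 4.76 and 4.29 FPKM with amphetamine, against 3.47, 3.55 and 5.33 FPKM with saline, where 1 saline library was the highest of the 6. The mean was higher with amphetamine on 3 of 3 days, at 5.99 ± 0.97, 4.08 ± 0.27 and 4.75 ± 0.45 FPKM, against 4.52 ± 0.88, 2.90 ± 0.64 and 4.12 ± 1.05 FPKM with saline (SD, n = 3 each).

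The synthesis genes stood highest of the 6 by p-value, and neither passed the threshold of 0.05 after adjustment over the 13975 genes tested. Averaged over days, Ddc differed by 0.31 ± 0.091 on the log2(FPKM + 1) scale, amphetamine minus saline (SE, limma adjusted p = 0.587), and ranked 106 by p-value. Th differed by 0.34 ± 0.12 (SE, limma adjusted p = 0.784) and ranked 235. The exact permutation test, two-sided and with treatment exchanged within each day, with 8000 assignments and a smallest possible p of 0.00025, gave p = 0.00725 for Ddc (adjusted p = 0.768) and p = 0.01575 for Th (adjusted p = 0.895). The unadjusted 95% interval ran from 0.11 to 0.50 for Ddc and from 0.083 to 0.61 for Th. On single days, the Ddc difference was 0.35 on day 1 (limma adjusted p = 0.674), 0.39 on day 7 (adjusted p = 0.892) and 0.18 on day 21 (adjusted p = 0.878). The Th difference was 0.28, 0.39 and 0.36 on the same days, with limma adjusted p-values of 0.711, 1 and 0.871. Single libraries moved these day values by over 1.5 times. Ddc became 0.22 on day 1 without saline replicate 2, and on day 21 it became 0.096, 0.11 and 0.35 without saline replicates 1, 2 and 3 of that day. Th became 0.16 on day 1 without amphetamine replicate 3, 0.23 on day 7 without saline replicate 2 and 0.21 on day 21 without amphetamine replicate 3.

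Markers of other cell types were compared between the groups in the same way, and none of those tested passed. The median absolute difference of all tested genes was 0.043 in the mean of days. In the mean of days, 3 of 9 striatal projection neuron markers were higher with amphetamine, with a median of -0.048. Of the endothelial and mural markers 6 of 10 were higher, with a median of 0.022. The 2 blood markers had a median of -0.014 in the mean of days and -0.80 on day 7. Of the 9 choroid plexus and ependymal markers, 5 averaged at least 1 FPKM. With amphetamine, 5 of these 5 were higher in the mean of days, as were 55.6% of all tested genes. Their median difference was 0.46 on the log2 scale, with 0 passing (smallest limma adjusted p = 0.181). Ttr had the highest mean of the 9, at 18.4 FPKM, and reached 91.1 FPKM. The summed level of the 9 ran from 32.9 to 104.5 FPKM with amphetamine, against 12.6 to 22.7 FPKM with saline, on day 1. On day 7 it ran from 12.2 to 35.2 FPKM with amphetamine, against 8.99 to 16.3 FPKM with saline, and on day 21 from 17.1 to 39.5 FPKM with amphetamine, against 11.5 to 48.6 FPKM with saline, where the median of the libraries was the lower with amphetamine, at 23.9 FPKM, against 32.0 FPKM with saline. None of the 9 was at 0 in all libraries, and the part of these cells in the Th and Ddc values was not tested. The summed midbrain dopamine neuron markers ran from 0.873 to 3.70 FPKM with amphetamine, against 0.810 to 4.89 FPKM with saline, on day 1. On day 7 they ran from 0.653 to 1.36 FPKM with amphetamine, against 0.684 to 2.54 FPKM with saline, and on day 21 from 1.51 to 2.75 FPKM with amphetamine, against 3.23 to 7.17 FPKM with saline. These sums mainly describe Nr4a2, the member of that list above 1 FPKM, with a mean of 2.02 FPKM. The next highest, En2, averaged 0.289 FPKM. Nr4a2 is expressed in cortex as well, and differed by -0.59 ± 0.30 (SE, limma adjusted p = 0.976). Of the 6 cortical glutamatergic neuron markers, 2 averaged at least 1 FPKM: the vesicular glutamate transporter gene Slc17a7 differed by -0.78 ± 0.48 and the transcription factor gene Tbr1 by -0.40 ± 0.29 (SE, limma adjusted p = 0.999 for both). The summed cortical markers ran from 2.77 to 18.2 FPKM with amphetamine, against 5.47 to 37.1 FPKM with saline, on day 1. On day 7 they ran from 1.82 to 10.0 FPKM with amphetamine, against 3.10 to 15.2 FPKM with saline, and on day 21 from 14.3 to 28.3 FPKM with amphetamine, against 10.1 to 62.8 FPKM with saline. The midbrain and cortical sums were both highest in saline day 21 replicate 1 and both lowest in amphetamine day 7 replicate 1. The part of cortical tissue in the Nr4a2, Th and Ddc values was not tested.

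**Figure D2:**
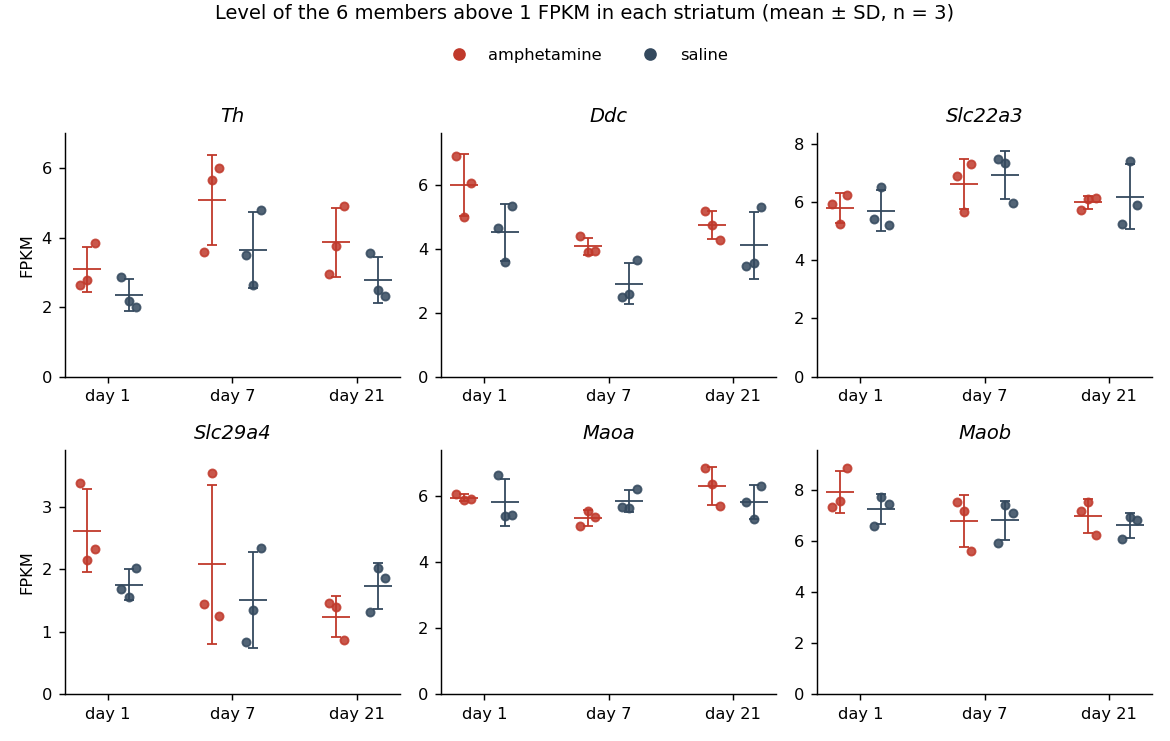
FPKM in each of the 18 striata for Th, Ddc, Slc22a3, Slc29a4, Maoa and Maob, by day, with amphetamine in red to the left of saline in dark blue; horizontal lines are means and bars are SD (n = 3). Th and Ddc means lie higher with amphetamine on the 3 days, with overlapping points except for Ddc on day 7, while the points of Slc22a3, Maoa and Maob stay within narrow bands.

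The symbol of the vesicular monoamine transporter appeared in 2 rows whose names differ in letter case. The row Slc18a2 held between 0.000106 and 0.000164 FPKM in 17 libraries and 1.51 FPKM in the remaining library, saline day 7 replicate 2. The row slc18a2 did the reverse: it held 1.95 to 2.71 FPKM in 17 libraries and 0.505 FPKM in saline day 7 replicate 2. Added together, the rows gave 2.02 FPKM in that library and 1.95 to 2.71 FPKM over the 18 libraries. The table held 168 names that differ from another only in letter case, and 80 rows lay above 0 and under 0.001 FPKM in at least 17 libraries. Whether both rows describe the same transcript is not given in the sources used here, so each is reported by its own name and the sum is a calculation made for this comparison.

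By row, the treatment comparisons for Slc18a2 and slc18a2 rested on that library. The row slc18a2 had 2.25, 2.71 and 2.02 FPKM with amphetamine, against 2.28, 2.04 and 2.07 FPKM with saline, on day 1, and 2.31, 2.47 and 2.42 FPKM with amphetamine, against 2.40, 2.25 and 1.98 FPKM with saline, on day 21. On day 7 it had 2.48, 2.40 and 1.95 FPKM with amphetamine, against 2.22, 0.505 and 2.60 FPKM with saline. The groups overlapped on each day. The day 7 difference of slc18a2 was 0.33 ± 0.23 (SE, limma adjusted p = 1), became -0.060 without saline day 7 replicate 2, and was -0.0013 ± 0.097 for the summed rows (limma adjusted p = 1). Averaged over days, the summed rows had 2.33 ± 0.24 FPKM with amphetamine and 2.21 ± 0.21 FPKM with saline (SD, n = 9 each), which differed by 0.055 ± 0.056 on the log2 scale (SE, limma adjusted p = 0.999). The row Slc18a2 differed by -0.15 in the fit without a filter (limma adjusted p = 0.968), and by 2.00e-05 without that library. The remaining values followed relative depth. Their lowest, 0.000106 FPKM, was in the deepest library, and their highest, 0.000164 FPKM, was in the library of lowest relative depth, 0.652.

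**Figure D3:**
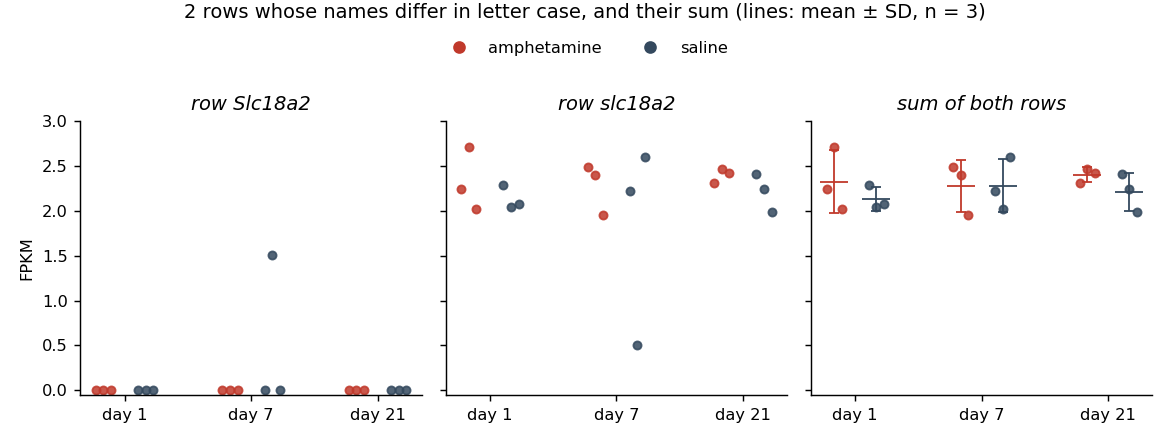
FPKM of the rows Slc18a2 (left) and slc18a2 (middle) and of their sum (right) in each of 18 striata by day, with amphetamine in red to the left of saline in dark blue; lines and bars in the right panel are mean and SD (n = 3). The point of saline day 7 replicate 2 lies at 1.51 FPKM in the left panel and 0.505 FPKM in the middle panel, and its sum of 2.02 FPKM falls among the others.

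Slc6a3, the dopamine transporter through which amphetamine enters dopamine terminals, was barely measured. Its mean was 0.0325 FPKM, its highest library had 0.140 FPKM, and 7 of 18 libraries were listed at 0. Its values were whole multiples of a smallest step, worth 0.0180 to 0.0276 FPKM depending on the library, within 0.05 of a step. On day 1 the amphetamine mice had 6, 1 and 3 steps, against 0, 2 and 0 in the saline mice. On day 7 the amphetamine mice had 4, 0 and 0 steps, against 0, 1 and 1 in the saline mice, and on day 21 they had 0, 3 and 0 steps, against 3, 1 and 2 in the saline mice. In all, 17 steps were seen in 5 of 9 amphetamine libraries and 10 steps in 6 of 9 saline libraries, and the groups overlapped on each day. The exact permutation p was 0.318 (adjusted p = 1), and limma without a filter gave a difference of 0.026 (adjusted p = 0.968).

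Slc6a4, the serotonin transporter, was lower still, at a mean of 0.00713 FPKM. It was above 0 in 3 of 9 amphetamine libraries, with 1 step on day 1, 3 steps on day 7 and 1 step on day 21, and was listed at 0 in 9 of 9 saline libraries. If a step is a fragment, a value of 0 in 1 library does not mean absence. A limit of 3 steps was set for such a value, or 0.0689 to 0.0897 FPKM in the saline libraries. It is a convention, not a strict bound. The highest amphetamine value, 0.0730 FPKM, was itself 3 steps, so its place inside that span follows from relative depth. The limit was set for single libraries and does not address the totals, 5 steps in 9 amphetamine libraries and 0 steps in 9 saline libraries. The exact permutation p was 0.25 (adjusted p = 1). No change of either plasma membrane transporter was detected, and the size of change that could have been seen at this depth was not tested.

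**Figure D4:**
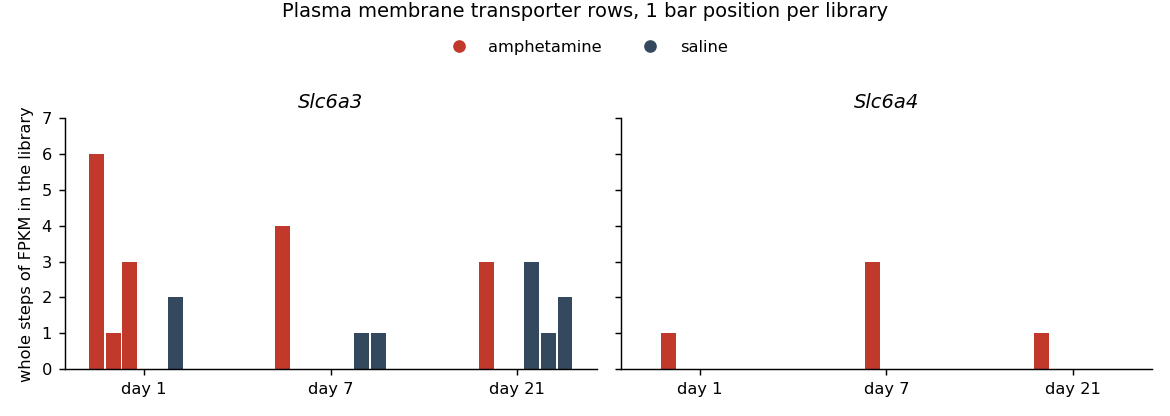
Values of Slc6a3 (left) and Slc6a4 (right) in each library, in whole steps, by day, with amphetamine in red to the left of saline in dark blue. A step is the smallest FPKM unit of that gene, scaled to the relative depth of the library. Each library has 1 bar position, and no bar means a value of 0. Slc6a3 reached 6 steps in 1 amphetamine library of day 1 and Slc6a4 reached 3 steps in 1 amphetamine library of day 7.

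The low-affinity carriers were measured well above these transporters. Slc22a3, the organic cation transporter OCT3, had 5.93, 5.23 and 6.23 FPKM with amphetamine, against 5.41, 6.50 and 5.19 FPKM with saline, on day 1. On day 7 it had 6.90, 5.66 and 7.31 FPKM with amphetamine, against 7.48, 7.32 and 5.97 FPKM with saline. On day 21 it had 5.71, 6.11 and 6.12 FPKM with amphetamine, against 5.25, 7.40 and 5.89 FPKM with saline. The groups overlapped on each day, and on day 7 the means of 6.62 ± 0.86 FPKM with amphetamine and 6.92 ± 0.83 FPKM with saline (SD, n = 3 each) differed by less than either SD. Averaged over days, Slc22a3 differed by -0.021 ± 0.069 (SE, limma adjusted p = 0.999), with an unadjusted 95% interval from -0.17 to 0.13.

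Slc29a4, the plasma membrane monoamine transporter PMAT, varied most among the 6. On day 1 it had 3.38, 2.15 and 2.33 FPKM with amphetamine, against 1.68, 1.55 and 2.03 FPKM with saline, and the groups did not overlap, as was the case, with amphetamine higher, for 7.73% of the tested genes on that day. On day 7 it had 1.45, 3.55 and 1.24 FPKM with amphetamine, against 0.836, 1.35 and 2.35 FPKM with saline, and 1 amphetamine library stood above the other 5. On day 21 it had 1.47, 1.39 and 0.867 FPKM with amphetamine, against 1.32, 2.02 and 1.86 FPKM with saline, and the amphetamine mean was the lower, at 1.24 ± 0.33 FPKM with amphetamine and 1.73 ± 0.37 FPKM with saline (SD, n = 3 each). The log2 differences were 0.38 ± 0.26 on day 1, 0.26 ± 0.26 on day 7 and -0.29 ± 0.26 on day 21 (SE, limma adjusted p = 0.701, 1 and 0.884). Without amphetamine day 7 replicate 2 the day 7 difference was -0.055. The difference between the days was tested directly by the treatment by day interaction and did not pass (limma adjusted p = 0.780).

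Maoa, which prefers serotonin and noradrenaline as substrates, had the smallest spread. On day 1 it had 6.07, 5.89 and 5.92 FPKM with amphetamine, against 6.65, 5.39 and 5.44 FPKM with saline. On day 7 it had 5.10, 5.56 and 5.36 FPKM with amphetamine, against 5.67, 5.65 and 6.23 FPKM with saline, and these groups did not overlap, with amphetamine lower, as for 4.86% of the tested genes on that day. The day 7 difference was -0.11 ± 0.080 (SE, limma adjusted p = 1). On day 21 it had 6.87, 6.36 and 5.71 FPKM with amphetamine, against 5.82, 5.30 and 6.33 FPKM with saline, with overlap and the amphetamine mean higher. Its interaction had a limma adjusted p of 0.787. Averaged over days Maoa differed by 0.0078 ± 0.046 (SE, limma adjusted p = 0.999), with a direction that turned to -0.0017 under median-of-ratios scaling and -0.014 under quantile normalization, and with an unadjusted 95% interval from -0.092 to 0.11.

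Maob, the form found in astrocytes and in serotonin neurons, had 7.30, 7.56 and 8.84 FPKM with amphetamine, against 6.57, 7.70 and 7.43 FPKM with saline, on day 1. On day 7 it had 7.51, 7.18 and 5.60 FPKM with amphetamine, against 5.93, 7.40 and 7.07 FPKM with saline, and on day 21 it had 7.16, 7.53 and 6.21 FPKM with amphetamine, against 6.05, 6.93 and 6.81 FPKM with saline. The groups overlapped on each day. Averaged over days the difference was 0.056 ± 0.063 (SE, limma adjusted p = 0.999), with an unadjusted 95% interval from -0.078 to 0.19. The 10 astrocyte markers moved by a median of 0.13, 0.034 and -0.044 on days 1, 7 and 21, with 0 passing, beside Maob differences of 0.11, -0.010 and 0.067. The 10 oligodendrocyte markers moved by a median of 0.24, -0.057 and -0.11 on the same days, with 0 passing. The part of glial content in the Maob values was not tested.

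Set against all genes, 0 of the 6 tested members passed in any comparison. On day 1, 0 of 6 passed, where 0.00716% of the 13975 tested genes did, and 1 of 6 had an unadjusted p under 0.05, against 7.25% of genes. Day 1 differences were above 0 for 6 of 6 members, with a median of 0.20, and for 64% of all genes, with a median of 0.047. On day 7, 0 of 6 passed (0.0215% of genes), 1 had an unadjusted p under 0.05 (4.92% of genes), and 3 of 6 differences were above 0 (51.5% of genes), with a median of 0.13 against 0.0036. On day 21, 0 of 6 passed, as did 0% of genes, 0 had an unadjusted p under 0.05 (5.5% of genes), and 4 of 6 were above 0 (42.7% of genes), with a median of 0.084 against -0.020. In the mean of days, 0 of 6 passed (0.122% of genes, 17 in number), 2 had an unadjusted p under 0.05 (5.36% of genes), and 5 of 6 were above 0 (55.6% of genes), with a median of 0.088 against 0.0080. Members whose groups did not overlap numbered 1 of 6 with amphetamine higher and 0 of 6 with amphetamine lower on day 1 (7.73% and 2.91% of genes), 1 and 1 on day 7 (5.45% and 4.86%), and 0 and 0 on day 21 (4.76% and 7.51%). The exact permutation gave 2 of 9 members an unadjusted p under 0.05, against 4.79% of 22867 rows, and 0% of rows passed after adjustment.

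**Figure D5:**
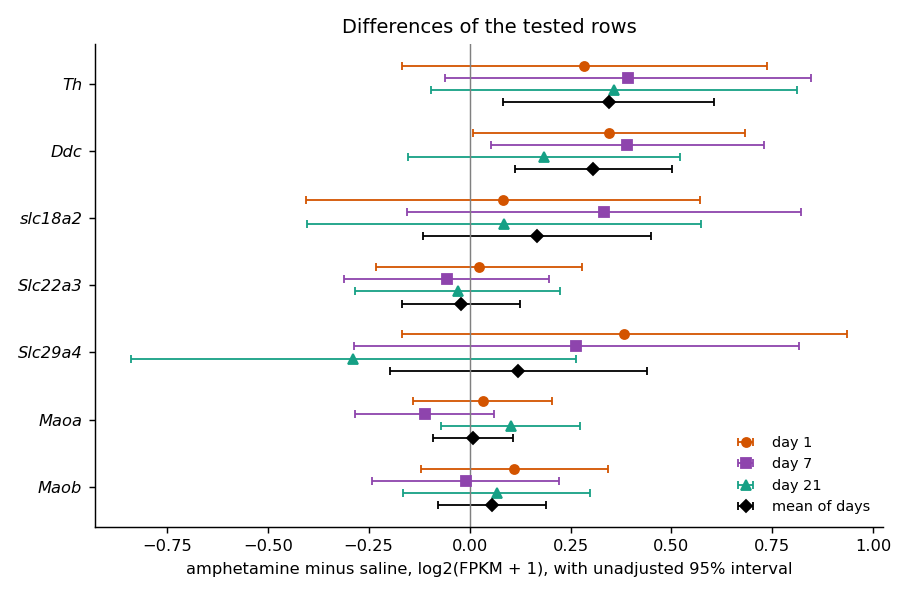
Amphetamine minus saline in log2(FPKM + 1) for the 6 tested members and the row slc18a2, on days 1, 7 and 21 and averaged over days; points are limma estimates and bars are unadjusted 95% intervals. Positive values mean a higher level with amphetamine. The intervals of Th and Ddc lie above 0 in the mean of days, at 0.083 to 0.61 and 0.11 to 0.50, while Slc29a4 lies at 0.38 on day 1 and -0.29 on day 21 with wide intervals.

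The effect of treatment was not shown to depend on day for any member. In the interaction, 0 of 6 passed (0% of genes) and 0 had an unadjusted p under 0.05 (6.25% of genes), with limma adjusted p-values from 0.780 for Slc29a4 to 0.983 for Th. Among saline mice across days, 0 of 6 passed (0.00716% of genes) and 1 had an unadjusted p under 0.05 (5.95% of genes). That gene was Ddc (limma adjusted p = 0.804), whose saline mean was lowest on day 7. Th, in contrast, had its highest saline mean on day 7 (limma adjusted p = 0.864).

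Other genes of monoamine handling, from lists drawn up for this comparison, spanned a wide range of levels. Of 5 further synthesis enzymes, Pnmt, which makes adrenaline, averaged 1.72 FPKM, and the rest averaged below 1 FPKM: the histamine enzyme Hdc at 0.661, the tryptophan hydroxylases Tph2 at 0.123 and Tph1 at 0.0250, and the noradrenaline enzyme Dbh at 0.00173 FPKM. Among 8 genes of tetrahydrobiopterin, the cofactor of Th, the recycling enzyme Qdpr had 82.7 FPKM, and the synthesis enzymes Spr and Pts stood between it and Pcbd2, at 6.35 FPKM. The entry enzyme Gch1 had 0.287 FPKM and its regulator Gchfr had 0.446 FPKM. Of 4 further transporters, the vesicular protein gene Slc10a4 had 7.73 FPKM, while the noradrenaline transporter Slc6a2 was listed at 0 in 17 libraries. Of 11 further breakdown enzymes 10 averaged at least 1 FPKM: the aldehyde reductase gene Akr1a4 had 107.9 FPKM, the aldehyde dehydrogenase genes Aldh2 and Aldh1a1 had 24.6 and 13.7 FPKM, and the histamine methyltransferase gene Hnmt had 12.1 FPKM. Among 7 partners of the dopamine transporter, the protein kinase C gene Prkcb had 185 FPKM, the vesicle gene Syngr3 had 60.5 FPKM, and the trace amine receptor gene Taar1 was listed at 0 in the 18 libraries.

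None of these lists had a member that passed in the mean of days. In the breakdown list 6 of 10 tested genes were higher with amphetamine, from Akr1b3 at -0.41 ± 0.20 (SE, limma adjusted p = 0.939) to Sult1a1 at 0.16 ± 0.088 (adjusted p = 0.999). Of the cofactor genes 3 of 5 were higher, from Pcbd2 at -0.13 to Pts at 0.088, and of the transporter partners 1 of 6 was higher, from Stx1a at -0.069 to Flot1 at 0.035 (limma adjusted p = 0.999 for each of these 4). Pnmt differed by 0.070 and Slc10a4 by 0.040 (limma adjusted p = 0.999 for both). The share of all tested genes above 0 in this comparison was 55.6%.

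Each member was compared with 13974 other genes by the root mean square difference of standardized log2 values over the 18 libraries, where a small value means a similar pattern. Nearest to Th were 1700030J22Rik at 0.645 SD and Mll2 at 0.725 SD, and nearest to Ddc were Stom at 0.659 SD and C030019I05Rik at 0.660 SD. Slc22a3 lay nearest to Rgs9, a striatal signalling regulator, at 0.403 SD, followed by Zfyve28 at 0.494 SD and Pde1b, a phosphodiesterase gene, at 0.526 SD. Slc29a4 lay nearest to Heatr7a at 0.342 SD, Steap2 at 0.360 SD and Npas1 at 0.372 SD. Maoa lay nearest to Anapc10 at 0.438 SD and Maob to Nrbp2 at 0.447 SD, and the row slc18a2 to Mir186 at 0.411 SD. The members were not among each other's nearest 3 genes. The closest ranks between members were 896 for Slc29a4 from Ddc, 1047 for Ddc from the row slc18a2 and 1141 for Slc29a4 from Maob. Ddc ranked 10659 from Th, and of Maoa and Maob, neighbours on chromosome X, Maob ranked 6165 from Maoa and Maoa ranked 7622 from Maob. These distances describe 18 libraries that share a table and a normalization. Each nearest gene has the smallest of 13974 distances, and how small that would be for other genes was not tested.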

How the data were processed

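The table analysed holds FPKM values as made by the authors and deposited for 18 libraries, with 0 columns of other samples; its header numbers were matched to the sample descriptions. The submitters' processing notes name Bowtie and mm9. How fragments were counted, against which annotation and with which strand setting is not given in the sources used here, so Ddc, Slc6a4, Slc22a3 and Slc29a4, whose annotated spans overlap another gene, may include its fragments. The reference at hand was of another build, so no gene coordinates other than those of the RefSeq promoter windows are printed.

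Total depth was unknown: 806 of 1495 low rows (53.9%) were whole multiples of a step in all libraries, within 0.05 of a step, which gave relative depth but not reads, and count models were left aside. The tested quantity was log2(FPKM + 1), on which differences of weakly expressed genes come out too small. In R version 4.3.3, limma version 3.58.1 was fitted to the 18 libraries with 6 group means and a mean-variance trend, for the 13975 genes with a mean of at least 1 FPKM. It gave amphetamine minus saline per day and over the mean of days, the interaction of treatment with day, and differences between days among saline mice. P-values were two-sided and Benjamini-Hochberg adjusted over these genes, with a threshold of 0.05. Members under 1 FPKM were read from the same fit without a filter on 22867 rows. Single values were also tested by exact permutation of treatment within days (8000 assignments). With 3 mice against 3 this exact test cannot go below p = 0.1.

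The members and gene lists were chosen with earlier results of these data known. All 9 members are named, and some genes of the wider pathway are not reported here. Listed genes are named by level, and by difference for those that pass and for the largest rise and fall; the 3 genes nearest in pattern were ranked for each member. Alternatives were a smaller pseudocount (0.1), dropping the filter or raising it to 5 FPKM, scaling by median of ratios or by quantiles, the replicate number as a block, leaving out each library and fitting the libraries of 1 day. Summing the Slc18a2 rows and relative depth as a covariate were added after seeing the data. Scripts were tested on simulated data. Figures were drawn with matplotlib (version 3.10.9).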

Additional observations from a re-analysis of the deposited data

How the results depend on the processing

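In every alternative run, 0 members passed in any comparison. Th and Ddc, which the filter of 5 FPKM leaves out, had a positive difference in each day or mean-of-days value computed under the others; relative depth was run for the mean of days, and the fit within a day for single days. Leaving out each library, Th ran from 0.16 to 0.40 on day 1, 0.23 to 0.58 on day 7, 0.21 to 0.50 on day 21 and 0.29 to 0.41 for the mean of days. Ddc ran from 0.22 to 0.45, 0.32 to 0.52, 0.096 to 0.35 and 0.26 to 0.36 in the same order. Of 1445 single-gene values under alternatives, 41 reversed and 0 crossed the threshold, and the cause was not tested. Many of the 1445 could not reverse, so the share that reversed does not measure stability. Values of the interaction and of day in saline mice are p-values without a sign. A day difference stays the same under the filters or the block, and when a library of another day is left out. The permutation repeats the mean-of-days differences of the fit.

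The counts over all genes were less stable. They were 1, 3 and 0 on days 1, 7 and 21, 17 for the mean of days, 0 in the interaction and 1 for day in saline mice. A filter of 5 FPKM gave 3 on day 1, 5 on day 7 and 4 on day 21, quantile normalization 3 on day 21, and a fit within each day's 6 libraries 3 on day 1, 9 on day 7 and 6 on day 21. The count for day in saline mice was 0 under no filter, under the filter of 5 FPKM and under quantile normalization. With relative depth as a covariate, added after seeing the data, the mean of days gave 9. Leaving out each library, counts ran from 1 to 8 on day 1, 0 to 10 on day 7, 0 to 6 on day 21, 8 to 17 for the mean of days, 0 to 2 in the interaction and 0 to 2 for day in saline mice.

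With the replicate number as a block, counts were 0 on day 7, 8 for the mean of days and 0 for day in saline mice. Same-numbered libraries correlated at -0.0853 to 0.145, over 0.1 in 3 of 9 pairings, and 4 of 9 libraries were closest to their own number. These included each replicate of day 21, at correlations of 0.114, 0.0425 and 0.145. The numbers were not taken to pair the mice, and pairing on day 21 alone was not tested.

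Small differences turned sign. Median-of-ratios scaling gave -0.012 for Maoa and -0.021 for Slc22a3 on day 1 and -0.0017 for Maoa in the mean of days, in both the fit and the permutation. Quantile normalization gave -0.020 for Maoa and -0.030 for Slc22a3 on day 1, and -0.014 for Maoa in the mean of days. Summing the Slc18a2 rows gave -0.0013 on day 7. With relative depth as a covariate the mean of days was -0.052 for Slc29a4, 0.0033 for Slc22a3, -0.022 for Pts and -0.012 for Flot1. Leaving out each library, Maoa ran from -0.012 to 0.12 on day 1 and from -0.011 to 0.036 in the mean of days, Maob from -0.093 to 0.10 on day 7 and Slc29a4 from -0.055 to 0.49 on day 7. Slc22a3 ran from -0.031 to 0.11 on day 1, -0.15 to 0.038 on day 7, -0.12 to 0.090 on day 21 and -0.053 to 0.019 in the mean of days. The row slc18a2 ran from -0.060 to 0.57 on day 7, and the row Slc18a2 from -0.22 to 2.00e-05 in the mean of days. The unknown read depth limits statements on Slc6a3 and Slc6a4, which rest on 27 and 5 steps in all.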
